A study of Pseudotsuga menziesii with 83 samples.

Results

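Of the 90662 numbered features in the needle count table of Douglas-fir (Pseudotsuga menziesii), 87 fell at each of the 3 steps between 4 spring collections, and these 87 members are described here. They were selected on their date means alone. Counts were turned into CPM (counts divided by the library's total and multiplied by one constant) and then into log2(CPM + 1), and the values of 11 trees were averaged on 10 March, 7 April, 6 May and 17 June of one year. A feature was eligible with a mean count of 50 or more over the 44 libraries and a place outside the 50 largest row sums, which left 16435 features. A member had to drop by 0.4 or more on the log2 scale from March to April, from April to May and from May to June. The rule would have kept the 150 members with the largest drop from March to June, but 87 features met it, 0.529% of those eligible, so no member was removed by that limit. In the opposite direction, 19 eligible features rose by 0.4 or more at every step.

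The trees were grown together in a common garden in southern Oregon, and the labels name no treatment. They came from seed of 3 sources. Oregon Siskiyou was represented by sibling trees 44 and 90 of one family and 46 and 89 of another, Washington Cascades by siblings 05 and 39 and by tree 08 of a second family, and Washington Coast by siblings 10 and 69 and siblings 12 and 68. Each library was made from needles that had grown the year before, from 1 tree on 1 date, so each tree was measured 4 times. The labels place all 11 trees before budbreak in March and all past it in June. In April trees 44, 46 and 89 were past budbreak, and in May tree 10 alone was not. A further Washington Cascades tree, tree 38 of the family of tree 08, had no column for the March date and was not used by the rule.

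Needles of evergreen conifers live for several years, and in early spring those of the previous year leave a cold-hardy winter state. Over the following weeks photosynthesis recovers, cold-protective proteins and sugars are drawn down, and the needles supply the buds that flush into new shoots. A transcript that is abundant in winter and is lost gradually can belong to any of these processes. The features of the table carry numbers and no gene names or sequences, so no member could be given a function, and the needle label could not be checked against marker genes. Whether a feature stems from the tree or from other organisms on the needle was not tested. In bulk needle RNA, fewer cells of a type and less RNA per cell cannot be told apart.

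The 44 library totals lay between 11293394 and 11302021 counts, so 1 count was worth 0.0885 CPM in every library. The 50 most abundant features took a rising share of each total, with a mean of 18.7% in March and 20.7% in April that reached 28.7% in May and 34.0% in June. The fall of the typical feature depended on the scaling. The median eligible feature fell by 0.24 on the log2 scale from March to June with column totals, against a change of -0.03 with TMM scaling (a trimmed mean of ratios between libraries), where a negative value is a rise. All 87 members still fell at each of the 3 steps under TMM scaling, with a median fall from March to June of 2.09, and also with the 50 most abundant features left out of the totals, with a median of 2.16.

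The members lost most of their counts over the spring. The median over members of the median tree was 37.4 CPM in March, 20.01 CPM in April, 10.1 CPM in May and 3.90 CPM in June. The fall from March to June ranged from 1.30 to 6.27 on the log2 scale with a median of 2.29, a factor of 4.90 on the CPM + 1 scale. It was 4 or more in 19 members, between 2 and 4 in 46 and under 2 in 22. Together the members took a median of 1.19% of a library's counts in March and 0.102% in June. These differences between dates chose the members and are given without a test.

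The 3 steps were of similar size over the members. The median member fell by 0.74 from March to April, by 0.78 from April to May and by 0.82 from May to June, whereas the fall of the median eligible feature was -0.03 (a slight rise), 0.18 and 0.06 in the same order. Steps of 0.4 or more were made by 7.59%, 33.5% and 15.3% of the eligible features. The largest step of a member was the first in 25 members, the second in 30 and the third in 32. It held between 34.3% and 70.7% of the whole fall with a median of 43.3%, and was under 50% of it in 65 members. The most even fall was that of gene13735, whose steps were 0.79, 0.82 and 0.84.

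**Figure D1:**
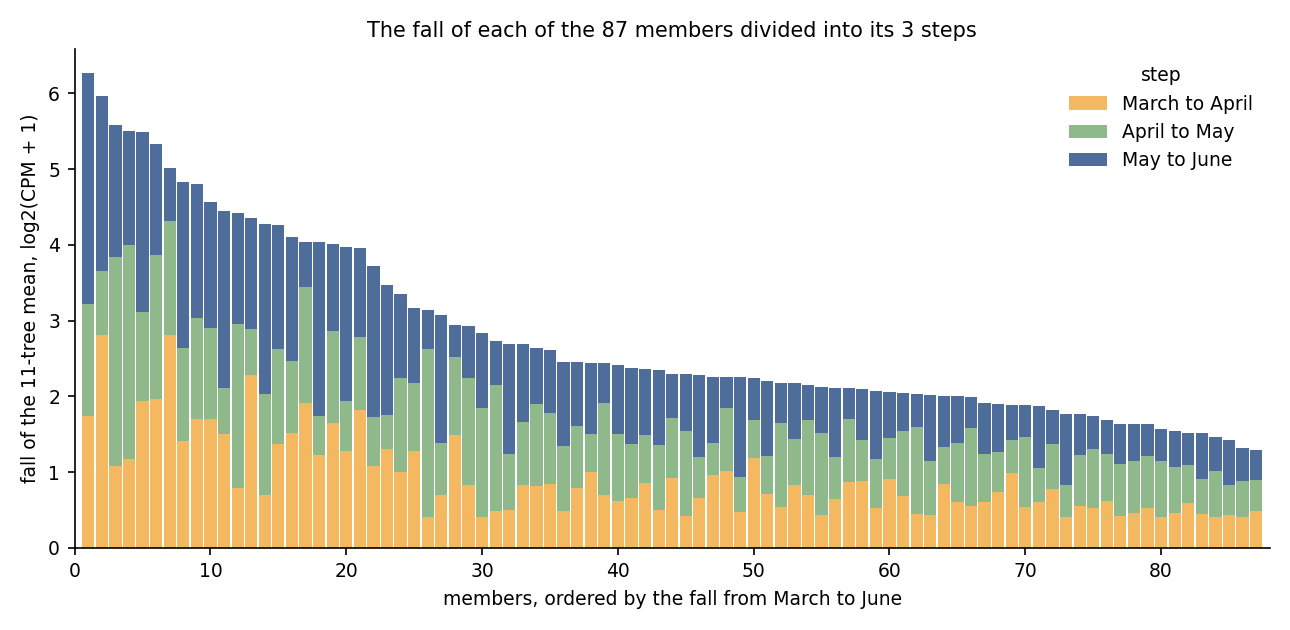
Fall of each of the 87 members from March to June, in log2(CPM + 1) of the 11-tree mean, stacked from its step from March to April (bottom), April to May (middle) and May to June (top). Members are ordered by their whole fall, from 6.27 at the left to 1.30 at the right, and each colour is at least 0.4 high in every bar because the rule asked for it.

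The members with the largest falls kept little of their March level in June. For gene46765 the lowest, median and highest tree stood at 71.0, 815 and 2450 CPM in March and at 15.7, 181 and 1666 CPM in April. May values were 1.15, 77.1 and 654 CPM, and June values 1.33, 5.05 and 102 CPM. Its date means fell by 1.74, 1.47 and 3.06 on the log2 scale, and March and June overlapped only through tree 89, which was low on every date. gene7994 had a median tree of 948 CPM in March, 106 CPM in April, 52.2 CPM in May and 9.21 CPM in June, and it fell at every step in all 11 trees. The ranges of March (68.4 to 2631 CPM) and June (4.603 to 48.3 CPM) did not overlap.

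Other strong falls had their main step at other dates. gene79725 lost most at once, from 50.9, 74.3 and 416 CPM (lowest, median and highest tree) in March to 2.39, 13.5 and 49.7 CPM in April, and then to 2.39, 6.91 and 32.9 CPM in May and 0, 0.266 and 2.48 CPM in June. In this member every March library lay above every April library, with a first step of 2.81. gene80206 made a first step of the same size, 2.80, from a median tree of 45.6 CPM in March to 4.07 CPM in April, 0.885 CPM in May and 0.0885 CPM in June, where 3 libraries were at 0. gene17488 and gene21372 made their largest step from April to May. gene17488 had a median tree of 89.4 CPM in March, 46.7 CPM in April, 4.34 CPM in May and 0.443 CPM in June, and gene21372 had 58.1, 40.5, 2.65 and 0.354 CPM on the same dates. Their steps from April to May were 2.77 and 2.83.

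gene38942 and gene90297 completed the 8 largest falls and were spread more evenly. gene38942 went from a median tree of 278 CPM in March to 58.7, 14.9 and 3.89 CPM, with steps of 1.97, 1.89 and 1.47. gene90297 went from 147 CPM to 64.6, 29.6 and 4.07 CPM, with steps of 1.41, 1.23 and 2.195. Both fell at every step in all 11 trees. In June 7 members had at least 1 library at 0, and a count of 0 in 1 library allows up to 3 counts.

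The members with the highest mean level over the 44 libraries were gene40190, gene42903, gene1542 and gene46765, at 629, 617, 428.5 and 426 CPM. gene40190 ranged from 298 to 2938 CPM around a median tree of 1305 CPM in March, and from 6.55 to 315.5 CPM around 51.5 CPM in June. Of its fall of 4.03, a step of 2.29 came between May and June. gene42903 varied widely between trees, from 61.8 to 2730 CPM in March and from 7.44 to 596 CPM in June. gene1542 differed little between trees. Its range was 447 to 859 CPM in March, 337 to 739 CPM in April, 258 to 339 CPM in May and 175 to 322 CPM in June, and its fall of 1.57 had an SD of 0.25 over 11 trees.

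At the other end were members that barely met the rule. gene20564, with steps of 0.49, 0.41 and 0.40, ranked last, and its trees overlapped on all dates, from 32.0 to 97.3 CPM in March and from 8.59 to 54.3 CPM in June. gene54590 had steps of 0.40, 0.49 and 0.43, gene28402 of 0.60, 0.64 and 0.67, and gene14111 passed with a last step of 0.401. Just outside, gene17178 had a smallest step of 0.3997 and gene12855 one of 0.394. The edge was crowded, since 27 members had a smallest step under 0.45 and 34 eligible features one between 0.35 and 0.4.

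**Figure D2:**
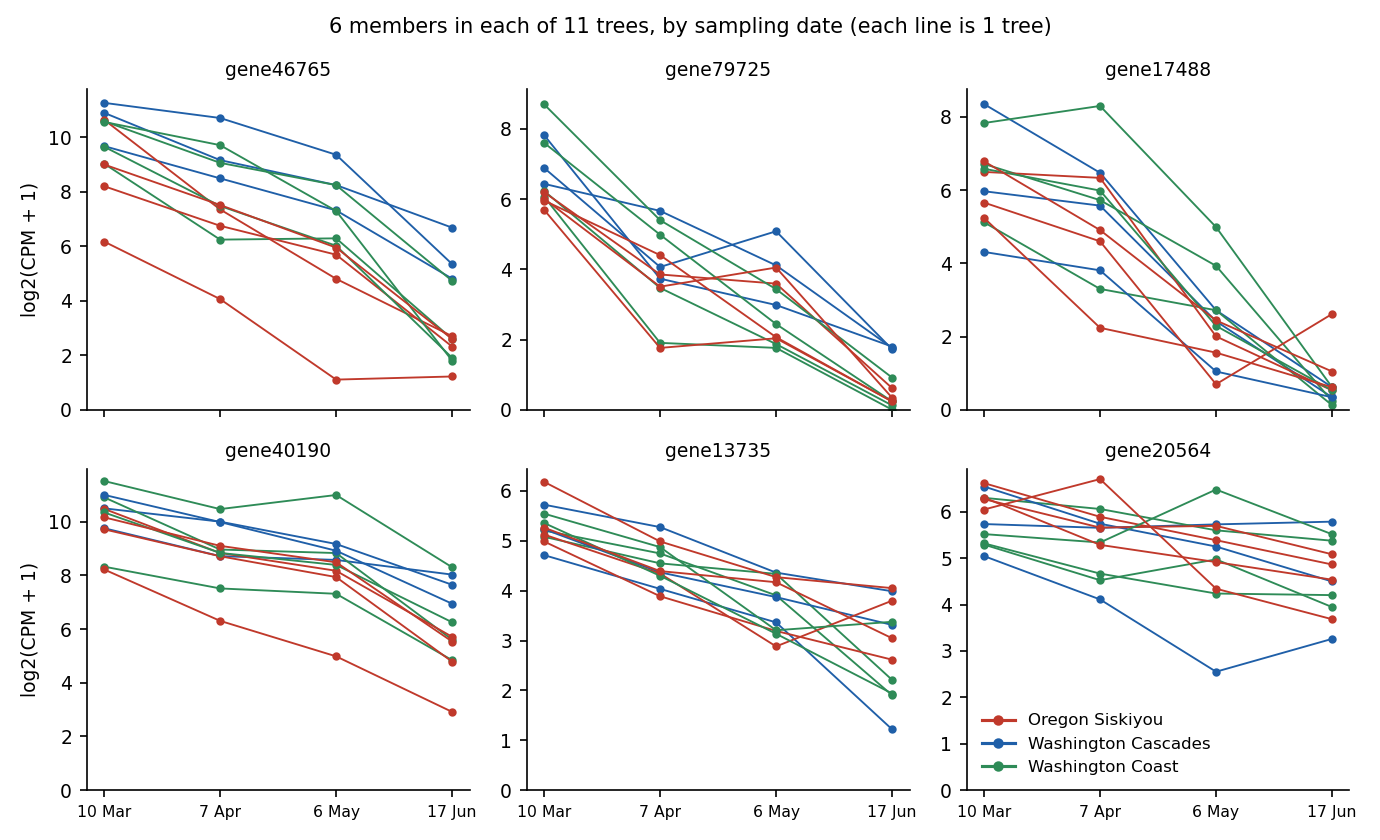
Level of 6 members in log2(CPM + 1) at the 4 sampling dates, with 1 line per tree coloured by seed source. gene46765, gene79725 and gene17488 are among the 8 largest falls (6.27, 5.97 and 5.59), gene40190 has the highest mean level, gene13735 the most even steps, and gene20564 lies at the edge of the rule, where single trees rise at single steps.

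The fall of the mean hid exceptions in single trees. Of the 957 pairs of tree and member, 870 fell from March to April, 850 from April to May, 852 from May to June and 950 from March to June. A total of 50, 31 and 23 members fell in all 11 trees at the steps to April, to May and to June, and 82 did so from March to June. Only 10 members fell at all 3 steps in all 11 trees, the median member did so in 8 trees, and the least regular member in 2. Every March library lay above every June library in 45 members, against 6.71% of the eligible features. For neighbouring dates the same held for 1 member from March to April, 3 from April to May and 0 from May to June, against 0.14%, 3.95% and 0.11% of the eligible features. Nothing is read from these shares, since the rule used the same dates.

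Averaged over the members, each of the 11 trees fell at each step. The mean over 87 members was 5.45 ± 0.49 in March and 4.53 ± 0.50 in April (log2(CPM + 1), SD, n = 11 trees). It was 3.62 ± 0.35 in May and 2.64 ± 0.34 in June. The steps of single trees ranged from 0.66 to 1.09, from 0.43 to 1.26 and from 0.38 to 1.60. Tree 44 made the smallest step from May to June, 0.38, with 53 of the 87 members lower in June than in May. Tree 10 made the largest, 1.60, with all 87 members lower. Tree 12 fell least from April to May, by 0.43, and tree 39 most, by 1.26. The total fall from March to June ranged from 2.27 in tree 08 to 3.46 in tree 69.

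**Figure D3:**
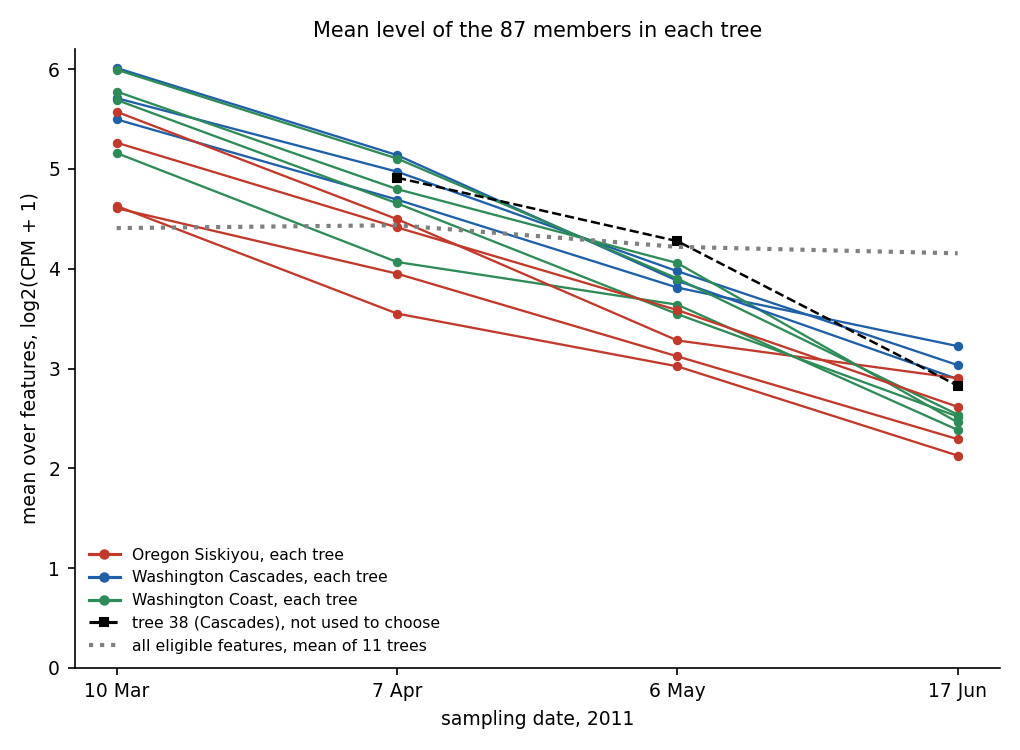
Mean over the 87 members in log2(CPM + 1) for each of the 11 trees at the 4 sampling dates, coloured by seed source, with tree 38 as a dashed black line and the mean over all eligible features as a dotted grey line. The members fall from between 4.61 and 6.01 in March to between 2.13 and 3.22 in June, and 2 Oregon trees (46 and 89) start lowest.

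The differences between seed sources were not used by the rule, which averaged over all trees. In March the member mean was 5.02 ± 0.48 in the 4 Oregon Siskiyou trees, 5.74 ± 0.26 in the 3 Washington Cascades trees and 5.66 ± 0.35 in the 4 Washington Coast trees (SD). In June it was 2.48 ± 0.34, 3.05 ± 0.17 and 2.48 ± 0.07. The Oregon trees overlapped with the others in March and June. In April the 4 Oregon trees lay between 3.55 and 4.50 and the Cascades trees between 4.69 and 5.14, without overlap. In May the Oregon trees lay between 3.02 and 3.59 and the Cascades trees between 3.81 and 3.98, again without overlap. The Coast trees lay between 4.07 and 5.10 in April and between 3.55 and 4.06 in May, and overlapped with both on each date.

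With the counts of the 4 dates added up per tree, edgeR called 0 of the 87 members different between the 3 sources at an adjusted p of at most 0.01, against 0% of the 29189 features tested. Adding counts weighs each date by its level. The members took a mean of 1.19% of a library's counts in March and 0.133% in June, so March weighed most in this test. At an unadjusted p under 0.05 there were 18 members (20.7%), against 9.77% of all features. DESeq2 called 4 members (gene80206, gene13846, gene37634 and gene51756) and 0.769% of its features, so the call depended on the tool. The median member was lower in Oregon than in the Cascades by 0.46 on the log2 scale and lower than in the Coast source by 0.47, with 22 and 23 members higher in Oregon. The medians of all tested features were -0.01 and -0.01 for the same differences. Between the Cascades and the Coast the median member differed by 0.01, with 44 members higher in the Cascades.

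The 3 members with the smallest p for the seed source showed different orders of the sources. gene80206 was lower in Oregon. In March its Oregon trees were at 19.0, 17.4, 8.76 and 10.4 CPM, its Cascades trees at 88.2, 65.2 and 36.6 CPM and its Coast trees at 45.6, 114.9, 64.6 and 71.2 CPM. The Oregon values lay below all others. In the counts added over the 4 dates, most of them from March, the difference was -1.95 (SE 0.45) from the Cascades and -2.36 (SE 0.43) from the Coast (edgeR, adjusted p = 0.273 for the 3 sources). gene13846 was lower in the Cascades. In March its 3 Cascades trees were at 28.5, 22.6 and 15.6 CPM, the Oregon trees between 30.2 and 60.5 CPM and the Coast trees between 34.3 and 52.8 CPM. Its difference between Oregon and the Cascades was 1.11 (SE 0.23), with the same adjusted p of 0.273. gene37634 spread widely in the Cascades, at 308, 93.9 and 37.5 CPM in March against 8.68 to 49.6 CPM in Oregon (edgeR, adjusted p = 0.327). With the date means removed, Cascades tree 05 deviated by 1.91 on the log2 scale and trees 39 and 08 by 0.56 and 0.40. Coast trees 10 and 69 were near the latter, at 0.55 and 0.49, and Coast trees 12 and 68 lay at -0.61 and -0.46.

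With the date means removed, the mean of every Oregon tree lay below that of every Washington tree in 2 members (gene80206 and gene1542), against 1.45% of the eligible features, and above it in 1 member (gene34741), against 0.42%. gene34741 was among the 10 members with an Oregon mean above both Washington means, whereas 55 members had one below both. It deviated by 0.65 in Oregon, -0.03 in the Cascades and -0.63 in the Coast source (log2 scale). Its Oregon trees were at 76.1, 50.6, 86.7 and 79.1 CPM in March and its Coast trees at 9.56, 46.2, 54.8 and 52.3 CPM. gene34741 was picked out for this pattern after its values were seen.

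The size of the fall was also compared between seed sources. All 87 members fell from March to June in each source, by a median of 2.04 in Oregon, 2.33 in the Cascades and 2.61 in the Coast source. The median eligible feature fell by 0.14, 0.20 and 0.34 in the same order. The rule averaged these same trees, so a fall in each source was largely set by the choice of members. The last step was the smallest in Oregon, with a median of 0.55, and the largest in the Coast source, with 1.07. Averaged over the members, Oregon tree 44 fell by only 0.38 at this step. Oregon trees 46, 89 and 90 fell by 0.83, 0.89 and 0.97, within the range of the Cascades trees (0.59 to 0.99). The test of source by date, with 44 libraries in 12 groups, called 0 members, against 0% of all features, and 1 member (gene9805) had an unadjusted p under 0.05 (1.15%, against 1.47% of all features). DESeq2 called 0 members as well. These fits treated the 4 libraries of a tree as independent. With the tree as a replicate block the test again called 0 members, and the lowest adjusted p was 0.276 (edgeR), in gene24174 (unadjusted p = 0.000388). Under the block 31 members (35.6%) had an unadjusted p under 0.05, against 2190 of all 29189 features tested and 9.13% of the eligible ones. Without the block the median change of a member from May to June, Oregon minus the mean of both Washington sources, was 0.29, with 61 of 87 members above 0 against 50.4% of all features, and from April to May it was -0.25, with 29 of 87 above 0 against 49.5% of all features. No member was called in either step. In gene9805, the member with the smallest p without the block (0.0170, adjusted p = 1.00 by edgeR), the Oregon trees went from 88.8, 19.1, 60.4 and 48.7 CPM in March to 3.81, 2.83, 3.54 and 3.81 CPM in June, and the Coast trees from 50.1, 25.3, 38.1 and 31.6 CPM to 17.6, 4.42, 4.87 and 8.76 CPM. June values were higher in each Coast tree than in each Oregon tree. gene17488 and gene9335 followed, with unadjusted p of 0.0554 and 0.0614 by edgeR.

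The members also differed between single trees. With the date allowed for, edgeR called 78 of the 87 members different between the 11 trees, against 53.1% of all features tested and 59.8% of the eligible ones. The distance from the lowest to the highest tree, as means over the 4 dates with the date means removed, had a median of 2.28 on the log2 scale in the members and of 0.88 in the eligible features. It was 2 or more in 52 members (59.8%) and in 9.60% of the eligible features. The SD between trees on a date was likewise larger, with a median over members of 0.90 in March and 0.68 in June against 0.36 and 0.34 in the eligible features. The 4 libraries of a tree stood as its repeats in this test, so it speaks of these 11 trees. The 9 members not called included gene1542, gene54590 and gene14111, and gene2096 was the least variable between trees (adjusted p = 0.734).

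Trees 46 and 89, siblings of one Oregon family, were lowest most often. Tree 89 had the lowest mean of the 11 trees in 24 members and tree 46 in 22, 27.6% and 25.3% of the members, while the same trees were lowest in 13.1% and 17.4% of the eligible features. Tree 69 of the Coast was highest in 17 members (19.5%) and tree 39 of the Cascades in 15 (17.2%), against 6.43% and 9.90% of the eligible features. Averaged over members and dates, tree 89 lay 0.73 below the mean of the trees and tree 46 lay 0.57 below it. The highest trees were 39 at 0.42, 05 at 0.36 and 69 at 0.33 above it. The other Oregon family was close to the mean of the 11 trees, with trees 44 and 90 at 0.01 and -0.09. Its family mean was still below both Cascades families on each date, at 5.42 in March against 5.86 and 5.50. Compared with the Coast families, it was below the first in March (5.89) and nearly level with the second (5.43). In April it lay between them (4.46 against 4.95 and 4.36). In May it was below both (3.43 against 3.98 and 3.59), and in June above both (2.76 against 2.50 and 2.45). The low Oregon level was strongest in the family of trees 46 and 89.

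**Figure D4:**
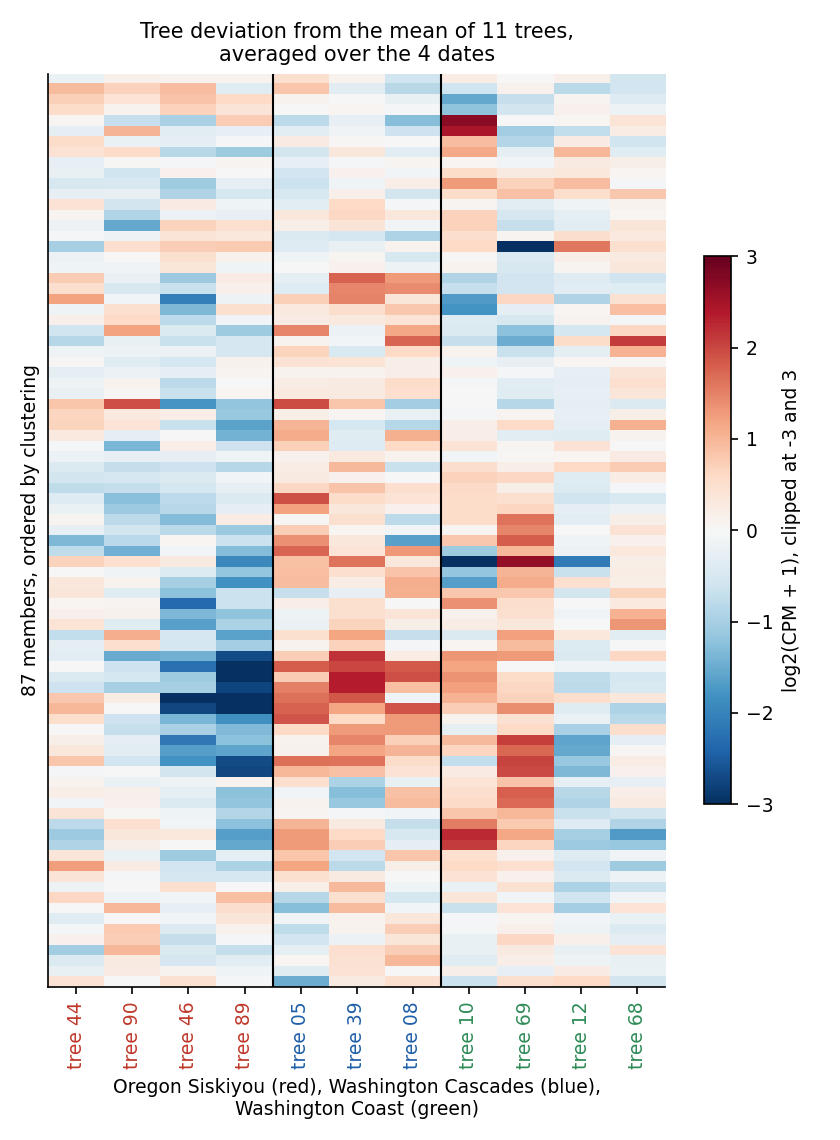
Deviation of each tree from the mean of the 11 trees for each of the 87 members (rows, ordered by clustering), as a mean over the 4 dates in log2(CPM + 1), with red above and blue below the mean and colours clipped at -3 and 3. Trees 46 and 89 are blue in most rows and deepest in a block of rows that are red in the 3 Cascades trees and in Coast trees 10 and 69.

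The 3 members with the smallest p between trees had quite different patterns. gene8304 was high in trees 05, 08, 90 and 68, at 142.6, 110.4, 92.1 and 89.2 CPM in March, while the other 7 trees lay between 23.3 and 47.9 CPM (edgeR, adjusted p = 4.7e-15). These 4 trees belong to 3 sources, and they remained the 4 highest in April, May and June. gene90709 was a feature of tree 10, which held 47.5, 43.7, 20.7 and 2.30 CPM on the 4 dates, while the others did not exceed 11.5, 9.29, 3.98 and 1.06 CPM (edgeR, adjusted p = 1.0e-14). gene15309 was low in trees 46 and 89, at 5.84 and 6.55 CPM in March against 11.2 to 60.5 CPM in the other trees (edgeR, adjusted p = 9.5e-15).

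gene15309 belonged to a group of 10 members that deviated together. After removal of the date means, 25 of the 3741 pairs of members had a correlation of 0.8 or more over the 44 libraries (0.668%, against 0.058% of the pairs of eligible features). The median correlation was 0.15 in the members and 0.10 in the eligible features. The libraries share trees, so these correlations describe the trees sampled. Joining pairs at 0.8 gave 9 groups with 28 members in all. Pairs were joined in chains, so some pairs within a group lay below 0.8, such as gene35724 and gene46465 at 0.798. The largest group held gene46765, gene7994, gene38942, gene35724, gene46465, gene45606, gene44087, gene58519, gene42903 and gene15309.

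This group of 10 held 3 of the 8 largest falls, and its trees differed widely. Its median fall was 4.31, against 2.26 in the other 77 members, and its median distance between the lowest and the highest tree was 4.98, against 2.16. The group was formed from the same deviations of the trees, so the wide distance is not independent of that choice. In March the mean over the group was 8.28, 7.11, 5.43 and 4.67 in Oregon trees 44, 90, 46 and 89, 8.28, 9.40 and 8.37 in Cascades trees 05, 39 and 08, and 9.01, 9.48, 6.77 and 7.80 in Coast trees 10, 69, 12 and 68 (log2(CPM + 1)). By June the Coast trees lay between 2.89 and 3.49 and the Cascades trees between 4.70 and 5.19, without overlap, although they had overlapped in March. Of the 10 members, 8 had their largest step from May to June. The group took a median of 0.570% of a library's counts in March and 0.0194% in June.

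The other groups were small. gene17488 and gene21372 had a correlation of 0.98, gene39391 and gene38397 of 0.97, gene34741 and gene66763 of 0.96, and gene45606 and gene44087 of 0.95. gene38200, gene24174 and gene54215 formed one group of 3, and gene10982, gene53843 and gene58964 the other. With no sequence to compare, 2 features of one pair that belong to the same gene cannot be told apart from separate genes. gene20380 had the most negative correlation with the mean of the other members, -0.55. It was nearly absent from tree 69, at 0.443, 0.0885, 0.0885 and 0.443 CPM on the 4 dates, and its other trees ranged from 12.7 to 58.5 CPM in March.

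The state of the buds differed between trees on 2 dates only, and it was not independent of the seed source. In April the 3 Oregon trees past budbreak had member means between 3.55 and 4.50 and the Oregon tree before it had 4.41, within that range. In May tree 10, not yet past budbreak, had the highest member mean of the 11 trees, 4.06, and the other 3 Coast trees lay between 3.55 and 3.90. Tree 10 had not been the highest in March or April, when tree 69 of its family was above it. With 1 tree, this was not tested.

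Libraries were sequenced on 2 flowcells. The labels also give lanes, and each lane held libraries of a single date, so lane and date cannot be told apart. In March 6 trees were on fc1022 and 5 on fc1025, in April the trees were exchanged, and all libraries of May and June were on fc1025. The test of the flowcell in the March and April libraries, with tree and date in the fit, called 0 members, against 0% of all features. At an unadjusted p under 0.05 there were 6 members (6.90%) and 4.56% of all features. The median member differed by 0.01 between the flowcells on the log2 scale, within a range of -0.50 to 0.55. gene2096 had the smallest p (edgeR, adjusted p = 0.175) with a difference of -0.50 (SE 0.10), as fc1025 minus fc1022 on the log2 scale, and DESeq2 called it at an adjusted p of 0.00318. It was followed by gene46132 and gene90367 (both 0.977). Within flowcell fc1025 alone, all 87 members fell from March to June in the 5 trees concerned, with a median of 2.45. All fell from April to May in the other 6 trees, with a median of 0.72. The median eligible feature fell by 0.18 and 0.16 in the same comparisons. The rule used these same libraries, so nothing about the flowcell is read from these falls.

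Tree 38 gave the same measures in a tree that the rule had not used. Between its April and May libraries 68 of the 87 members fell, and 50 fell by 0.4 or more (57.5%), against 29% of the eligible features. The median member fell by 0.60 and the median eligible feature by 0.07. Between the May library and the library labelled June 84 members fell, 71 by 0.4 or more, against 24.4% of the eligible features, with medians of 0.97 and 0.04. The labels date the 3 libraries to April, May and June, whereas the study's sampling table lists March, April and May for this tree. The dates of both steps are those of the labels, and the conflict was not resolved. The April library was on fc1022 and the later ones on fc1025.

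The members did not all follow the 11 trees in tree 38. gene71936 fell most from April to May, from 69.7 to 4.78 CPM and then to 0.62 CPM, and gene21372 fell from 26.1 to 4.07 CPM. gene44087 and gene45606 rose by 1.01 and 0.96 on the log2 scale before falling by 4.10 and 4.76 to 4.34 CPM each. Both belong to the group of 10 that deviated together. The mean of that group was 7.80 in April and 7.90 in May in tree 38 and fell to 4.18 in the library labelled June, whereas the other 77 members had means of 4.54, 3.81 and 2.65. The group was split from April to May in tree 38. gene46765, gene7994 and gene35724 fell by 0.77, 1.32 and 0.35, and its remaining members rose. In the 11 trees the mean of the group fell in both steps in every seed source. The means in the Cascades were 7.61 in April, 6.58 in May and 4.99 in June. Not every single tree fell at the first of these steps, since Coast tree 12 stood at 5.03 in April and 5.07 in May.

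**Figure D5:**
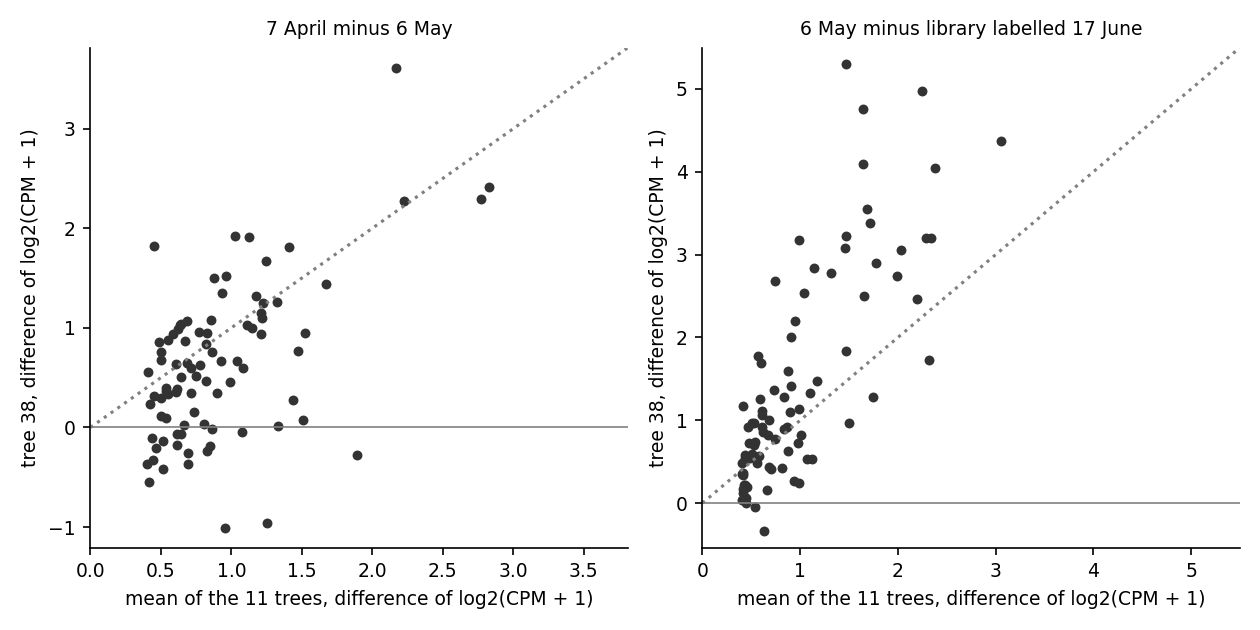
Step of each of the 87 members in tree 38 (vertical axis) against the same step in the mean of the 11 trees that chose the members (horizontal axis), both as differences of log2(CPM + 1), for April minus May (left) and May minus the library labelled June (right). Points above 0 fell in tree 38, 68 of 87 at the left and 84 of 87 at the right, and points on the dotted line fell as much as in the 11 trees.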

How the data were processed

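RNA-seq libraries of mature needles were made with a strand-specific kit and sequenced by Illumina, and the authors deposited 1 table of whole-number read counts per feature with 47 columns. CASAVA 1.8 and Bowtie2 are named in the submitters' processing notes. The paper's methods describe alignment of tree libraries with Bowtie2 to a pan-transcriptome assembled from needle reads. The size of that reference differs from the number of features in this table, so whether it underlies the table is unknown, and the counting tool was not given. The authors' deposited counts have nearly equal column totals, by a step that the sources do not describe, so differences in sequencing depth between libraries are no longer in the counts. The 3 columns of tree 38 were left out of the rule and of all fits, and no column was left unmapped (0 columns).

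CPM was computed from column totals, with a pseudocount of 1 on the log2 scale. Tests used the counts in edgeR 4.0.16 (R 4.3.3, TMM scaling, quasi-likelihood test) over the 29189 features with a median count over 5, all 87 members among them, with a Benjamini-Hochberg adjusted p of at most 0.01. Seed sources were compared on counts added up per tree, seed source by date on 44 libraries in 12 groups, trees with date as a covariate, and the flowcell on the March and April libraries with tree and date. The standard errors of log2 differences were derived from the same fit. The edgeR step was run on simulated counts with 200 changed features. Apart from the planted change the simulated libraries were independent, so this check does not cover the likeness of libraries of the same tree.

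All dates sampled the same trees, so the tree number pairs the libraries. The deviations from the means of source and date had a median correlation of 0.615 across features in the 66 pairs of libraries of the same tree (0.318 to 0.819). Alternatives were other scalings, pseudocounts and filters, DESeq2 1.42.0, a replicate block, the flowcell as a covariate and leaving out each tree. The step of tree 38 from May to the library labelled June was added after the data had been seen. Features were named by rule: the 8 largest falls, the 4 highest mean CPM, the 4 most even falls, the 3 smallest p in each test, the extremes of tree 38 and the edge of the selection. Features named beyond these (the groups that deviated together, gene34741, gene20380, gene51756 and gene39391) were chosen after their values were seen. The members and lists were chosen with earlier results of these data known.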

Additional observations from a re-analysis of the deposited data

Results flagged for a closer look

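Groups of 4 trees of one seed source were tested by Dixon's criterion at the 95% level. Chance meets it in about 1 of 20 groups if the values are normally distributed. CPM was used without a log here and can be skewed upward, so the number of flags is not read as an excess. A tree stood far from the other 3 in 29 of the 248 groups tested. The groups held the CPM of the 29 named members on each date, and the mean over all members as levels and falls. All flags were in the CPM of single named members. The Washington Cascades groups, with 3 trees, were not tested. Several flags of one member, or of members that deviate together, come from the same tree and are not independent.

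Tree 10 of the Washington Coast was the distant tree in gene90709 on all 4 dates, the highest of the 4 Coast trees at 47.5 CPM in March, 43.7 CPM in April, 20.7 CPM in May and 2.30 CPM in June. It was also the highest Coast tree in gene7994 in May, at 269.7 CPM, and in gene46765 in June, at 25.5 CPM. Tree 69 of the Coast stood above the other Coast trees in gene40190 in May (2047 CPM) and June (315.5 CPM), in gene21372 in April (275.8 CPM), in gene80206 in May (3.89 CPM) and in gene13735 in June (9.38 CPM). Tree 68 was the highest Coast tree in March in gene8304 (89.2 CPM) and gene90367 (29.6 CPM), and in June in gene90367 (4.51 CPM). Tree 12 was the highest in March in gene20564 (77.9 CPM) and gene9335 (27.3 CPM).

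Among the Oregon Siskiyou trees, tree 44 was distant in June in 3 members of the group of 10 that deviated together, as the highest tree in gene38942 (12.4 CPM), gene44087 (9.83 CPM) and gene45606 (16.1 CPM), and in April in gene28402 (10.7 CPM). Tree 90 was the highest in gene8304 in May (59.3 CPM) and June (27.5 CPM) and in gene13735 in March (71.6 CPM), and the lowest in gene2096 in March (63.8 CPM) and in gene71936 in May (1.50 CPM). Tree 89 was the highest in May in gene37634 (44.1 CPM), gene90709 (3.98 CPM) and gene14111 (15.2 CPM). Tree 46 was the highest in gene17488 in June, at 5.13 CPM. No named member moved in opposite directions in every tree of 2 seed sources.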

How the results depend on the processing

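The direction of the fall from March to June held for all 87 members under both other scalings, but membership itself depended on the settings, and 27 members had a smallest step under 0.45. Of the 87 members, 49 met the rule with TMM-adjusted library sizes, 56 with the 50 most abundant features left out of the totals, 44 with a pseudocount of 5, 52 with the median over trees in place of the mean, and 42, 47 and 57 with the Oregon Siskiyou, Washington Cascades or Washington Coast trees alone. With a pseudocount of 0.5 and with a minimum mean count of 20 all 87 did, with a minimum of 100 there were 71, and with libraries of flowcell fc1025 alone 63. Leaving out each tree in turn kept 67 to 81 of them. Under TMM 87, 55 and 78 members still fell by 0.4 or more at the steps to April, to May and to June.

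DESeq2 called 4 members different between seed sources (gene80206, gene13846, gene37634 and gene51756) where edgeR called 0. It called 1 member for the flowcell (gene2096), and edgeR called 2 without a filter on low counts (gene2096 and gene39391), where the main test called 0. The fit of seed source by date with the tree as a replicate block called 0 members and 1 of all features, and 31 members (35.6%) then had an unadjusted p under 0.05, as did 2190 of all features. The flowcell test with no replicate block called 0. Leaving out each tree left 0 calls between sources, 0 for source by date, 0 for the flowcell and 73 to 79 members called between trees. The other settings of the tree test gave 76 to 83 members. In tree 38 other scalings and pseudocounts gave 44 to 51 members with a fall of 0.4 or more from April to May and 60 to 71 from May to the library labelled June.

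No annotation was used, so shared reads between near-identical features were not assessed. The equal totals hide each library's sequencing depth. Members at 0 to 3 counts in June have no defined fold. Each seed source holds 3 or 4 trees from 2 families, so its mean speaks of those families.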
